A study of Mus musculus with 4 samples.

Results

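Apoptosis, pyroptosis and necroptosis are carried out by a small set of gene families, and 46 of their genes were followed in injured mouse liver: members of the Bcl-2 family, caspases, mitochondrial death factors, inhibitor of apoptosis proteins (IAPs), the adaptors and kinases of necroptosis, and caspase substrates. The genes were listed by function, and each was read at every probe set that the array annotation gives to that symbol alone. Of the 46 genes, 43 had at least 1 probe set of their own, 106 probe sets in all, out of 18193 genes measured in this way. Bax and Ripk1 were not analysed here, and Bnip3l had 3 probe sets, which it shares with its pseudogene Bnip3l-ps, so it was left out.

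RNA came from non-tumorous liver of 4 male mice on a C57BL/6 background, 2 WT and 2 G9aKO, with 1 Affymetrix Mouse Genome 430 2.0 array each. WT mice were Alb-Cre; G9a+/+ and G9aKO mice were Alb-Cre; G9aflox/flox, so both carried the recombinase Cre. The albumin promoter drives Cre in hepatocytes, and G9a stays intact in the other cells of the liver. All were 30 weeks old and had been given the carcinogen DEN (25 mg/kg, at 15 days of age) and 22 weekly doses of CCl4 (0.5 ml/kg), a toxin that kills hepatocytes around the central vein. G9a, encoded by Ehmt2, is a methyltransferase for lysine 9 of histone H3. With whole liver on the array, fewer cells of a type and less RNA per cell cannot be told apart. With 2 arrays a genotype, p-values set a difference only against the spread between these arrays. That spread is taken from the probe set itself and from all tested probe sets.

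In the intrinsic pathway, BH3-only proteins sense damage and bind the anti-apoptotic Bcl-2 members, which frees the effectors Bak and Bax to open the outer mitochondrial membrane. Cytochrome c then assembles Apaf1 and caspase-9 into the apoptosome, which activates executioner caspases, while the IAPs restrain caspases. Death receptors reach the same caspases through Fadd and caspase-8. Where caspase-8 is blocked, Ripk3 phosphorylates Mlkl, which ruptures the plasma membrane in necroptosis. Hepatocytes are known to depend on Bcl-xL (Bcl2l1) and Mcl1 for survival, and to need Bid to link death receptors to mitochondria.

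Most of the cell death genes were detected. A probe set was counted as detected when the array software called it Present on at least 2 of the 4 arrays, and a gene when at least 1 of its probe sets was. By this rule 35 of 43 cell death genes (81.4%) were detected, against 10350 of all 18193 genes (56.9%), and 29 of them had a probe set Present on all 4 arrays. At the level of probe sets, 64 of 106 were detected (60.4%, against 49.1% of all 34945 probe sets with 1 gene), and 36 were never called Present. The signal, a linear intensity scaled so that its trimmed mean is 500.0 on each array, reached 170 to 181 at the 95% quantile of Absent probe sets, so values below that level are uncertain. Signals of different probe sets depend on their sequence and give no order between genes.

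**Figure D1:**
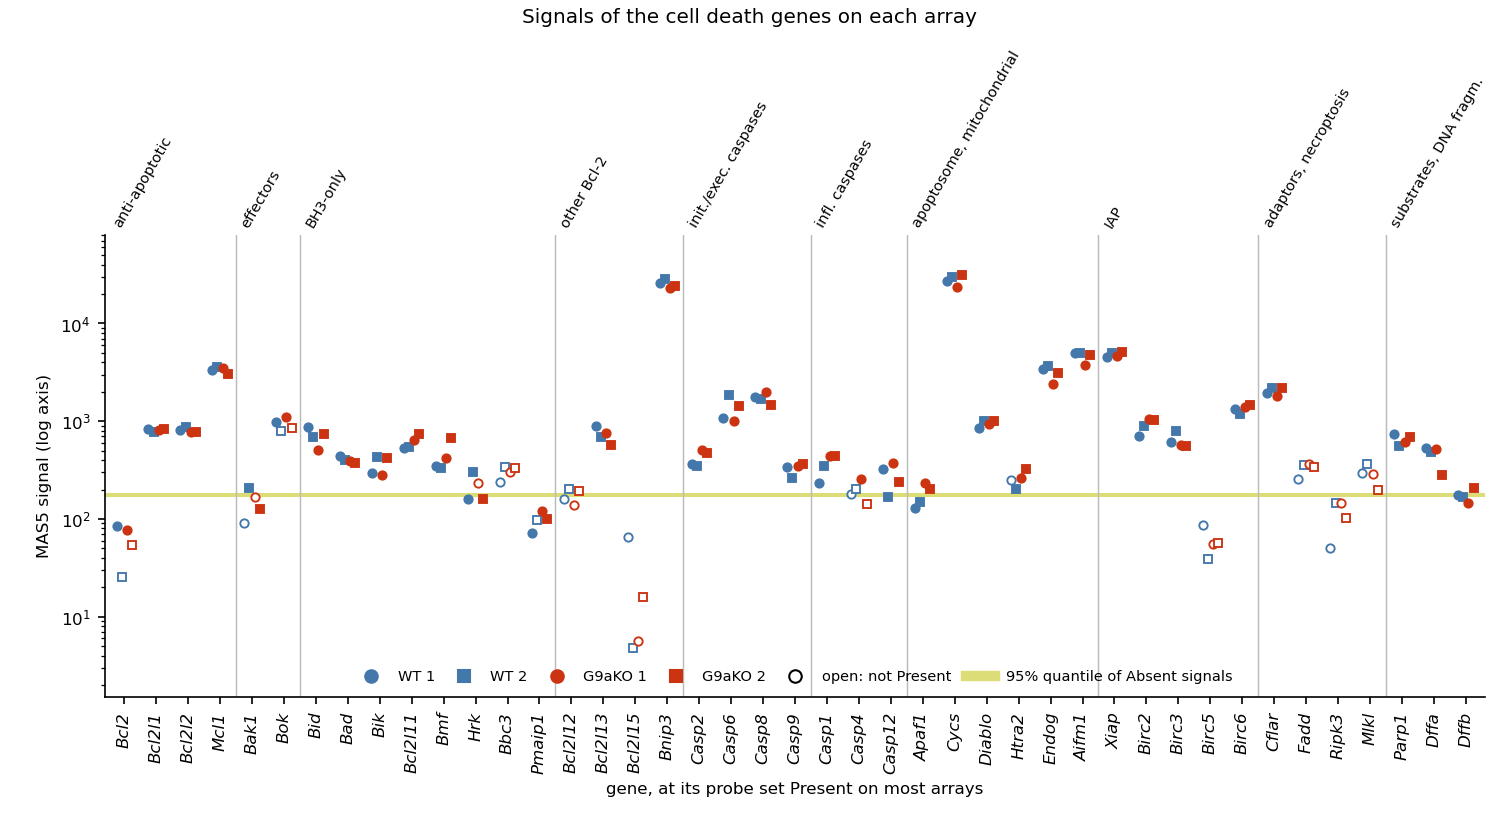
MAS5 signal (log axis) of 43 cell death genes on 2 WT arrays (blue) and 2 G9aKO arrays (red), each gene at the probe set Present on most arrays, ordered by role; filled symbols are Present calls, open symbols are not, and the band is the 95% quantile of Absent signals (170 to 181). The 4 symbols of a gene lie close together for most genes, and 8 genes have no probe set Present on 2 arrays.

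**Figure D2:**
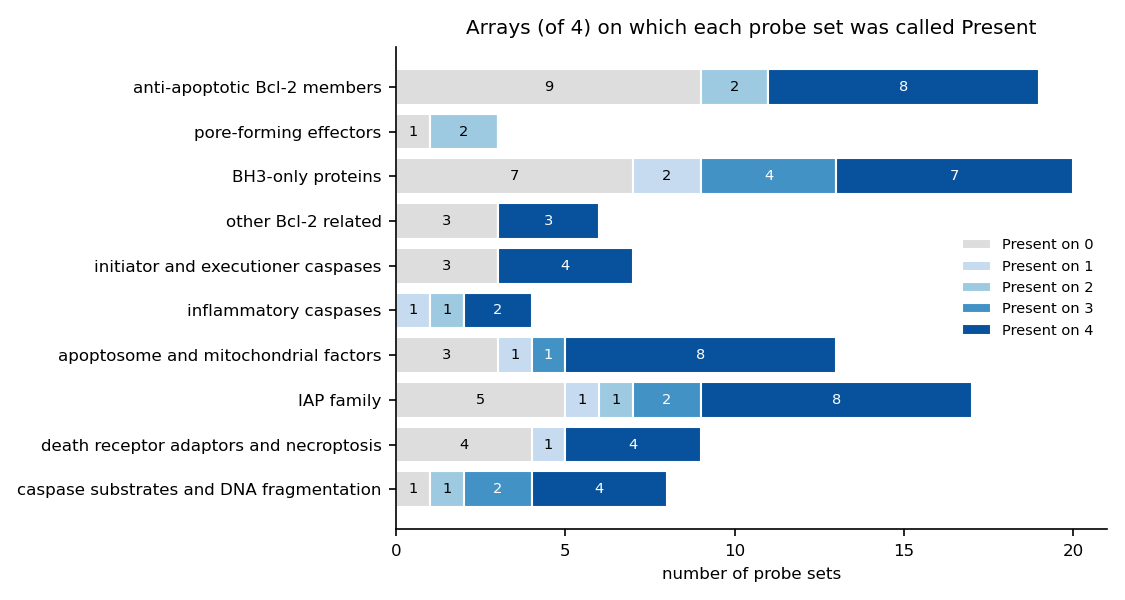
Number of probe sets of each role group (106 in all) by the number of arrays, from 0 to 4, on which they were called Present. Of these, 48 were Present on all 4 arrays and 36 on none.

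Detection ran through every step of the intrinsic pathway. All 4 anti-apoptotic genes, both measured effectors, 7 of 8 BH3-only genes, 4 of 4 initiator and executioner caspases, all 6 apoptosome and mitochondrial factors, 4 of 5 IAP genes and all 3 substrates had a detected probe set. Of the other Bcl-2 relatives 2 of 4 were detected, and of the inflammatory caspases 2 of 3. Of the death receptor adaptors and necroptosis genes Cflar, Fadd, Ripk3 and Mlkl, Cflar alone was detected. The difference in detection between these groups was not tested.

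The 8 genes without a detected probe set were Bbc3, Bcl2l12, Bcl2l15, Casp4, Birc5, Fadd, Ripk3 and Mlkl. Ripk3, the kinase that triggers necroptosis, gave 50.1 and 147 in WT and 146 and 103 in G9aKO liver, each called Absent. Mlkl, its substrate and the executor of necroptosis, was also Absent on all 4 arrays, although its signals of 297 and 362 in WT and 287 and 199 in G9aKO liver lay above the Absent quantile. Fadd, the adaptor between death receptors and caspase-8, was Absent at both of its probe sets, with 255 and 354 in WT and 363 and 339.5 in G9aKO liver at one of them. A call of Absent at a signal of this size says that the perfect-match and mismatch probes did not differ enough, so Mlkl and Fadd, whose signals lay above the Absent quantile, cannot be called unexpressed from their calls. The signals of Ripk3 lay below that quantile.

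Birc5 (survivin), an IAP made by dividing cells, was Absent throughout, at 38.8 to 86.1. Of the 4 proliferation markers with a probe set 2 were detected: Pcna was Present on all 4 arrays and Top2a on 2, while Mki67 was never Present. Bbc3 (Puma), a BH3-only target of p53, had Marginal calls in WT and Absent calls in G9aKO liver. Its signals of 238 and 341 in WT and 299 and 328 in G9aKO liver overlap. They lay above the Absent quantile, so Bbc3 too cannot be called unexpressed from its calls. Casp4, the sensor of cytosolic lipopolysaccharide, was Present on G9aKO 1 alone, at 255. Bcl2l12 and Bcl2l15, little studied relatives of Bcl-2, were Absent on every array.

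Promoter sequences of these genes were set beside their detection, because broadly used promoters tend to be rich in CG dinucleotides. In windows of 300 bases, 250 before and 50 after the RefSeq start (GRCm38.p6), 52 windows covered 40 of the 43 genes; Htra2, Pmaip1 and Bik had no entry. The median window held 20.5 CG dinucleotides, against 7 over all 32851 promoter windows, and the GC content was 61.0% against 52.7%. Detected genes had a median of 21 and genes not detected 19, so CG content did not separate them here. The following 120 bases before the start, with CG in capitals, show the range from the dense promoters of Mcl1 (chr3:95658601-95658720, plus strand, 17 CG) and Apaf1 (chr10:91082744-91082863, minus strand, 25 CG) to those of Casp1 (chr9:5298397-5298516, plus strand, 0 CG) and Bcl2l15 (chr3:103832576-103832695, plus strand, 0 CG).
Mcl1: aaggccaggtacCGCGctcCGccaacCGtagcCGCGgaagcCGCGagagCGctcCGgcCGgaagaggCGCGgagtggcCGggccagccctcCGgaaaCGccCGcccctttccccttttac
Apaf1: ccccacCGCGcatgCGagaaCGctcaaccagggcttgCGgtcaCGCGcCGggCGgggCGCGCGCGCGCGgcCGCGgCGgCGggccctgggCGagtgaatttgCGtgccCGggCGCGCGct
Casp1: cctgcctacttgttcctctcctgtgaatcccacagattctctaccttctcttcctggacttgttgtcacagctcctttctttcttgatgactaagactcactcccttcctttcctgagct
Bcl2l15: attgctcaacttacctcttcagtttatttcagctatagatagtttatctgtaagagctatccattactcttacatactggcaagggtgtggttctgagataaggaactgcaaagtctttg
The first 3 were detected and Bcl2l15 was not. So a 120-base stretch without CG went with Present calls in Casp1 and Absent calls in Bcl2l15. Over the whole window of 300 bases Casp1 held 3 CG and Bcl2l15 held 0. A p53 half-site, searched by its consensus with no mismatch (its pattern is its own reverse complement, so one search covers both strands), stood in 3 of 52 windows (5.77%), against 8.36% of all windows. Those were windows of Bmf, Birc2 and Birc5. The Bmf match, in capitals, starts 213 bases before the RefSeq start of one of its 3 windows (chr2:118544738-118544837, minus strand).
Bmf: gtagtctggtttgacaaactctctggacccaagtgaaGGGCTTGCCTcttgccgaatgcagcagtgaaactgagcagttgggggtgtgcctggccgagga
A match of letters is a description of the window and says nothing of binding by p53 in these livers.

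The comparison of G9aKO with WT liver asked whether loss of the enzyme in hepatocytes goes with a change in this machinery. In limma, with Benjamini-Hochberg adjustment over 17158 probe sets, 0 of 64 tested cell death probe sets passed an adjusted p of 0.05 in either direction, where 0.233% of all tested probe sets passed upward, 0.0466% downward and 0.28% in all. The lowest adjusted p among them was 0.387, and the t-test of the study's methods also left 0 past the adjusted threshold. At an unadjusted p under 0.05, 3 were higher in G9aKO liver (5.36% of all were) and 3 were lower (3.95%), so 9.38% of the cell death probe sets against 9.31% of all. The genotypes did not overlap at 13 higher and 13 lower probe sets, 40.6% of the 64, against 21.7% higher, 19.4% lower and 41.1% in all over every tested probe set. These shares are near the background.

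The differences were also of ordinary size. The median log2 difference, G9aKO minus WT, was -0.04 over the 64 probe sets and 0.02 over all tested, and the median absolute difference was 0.195 against 0.196. Of the 64, 29 lay above 0 and 35 below it, from -1.22 to 0.75. The 95% confidence interval lay within 1 log2 unit (2-fold) on both sides for 44 of the 64, so a larger change was outside the interval there; for the other 20 it was not. With 2 arrays against 2, an exact permutation test cannot go below p = 0.33, so limma's moderated test carries the comparison.

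**Figure D3:**
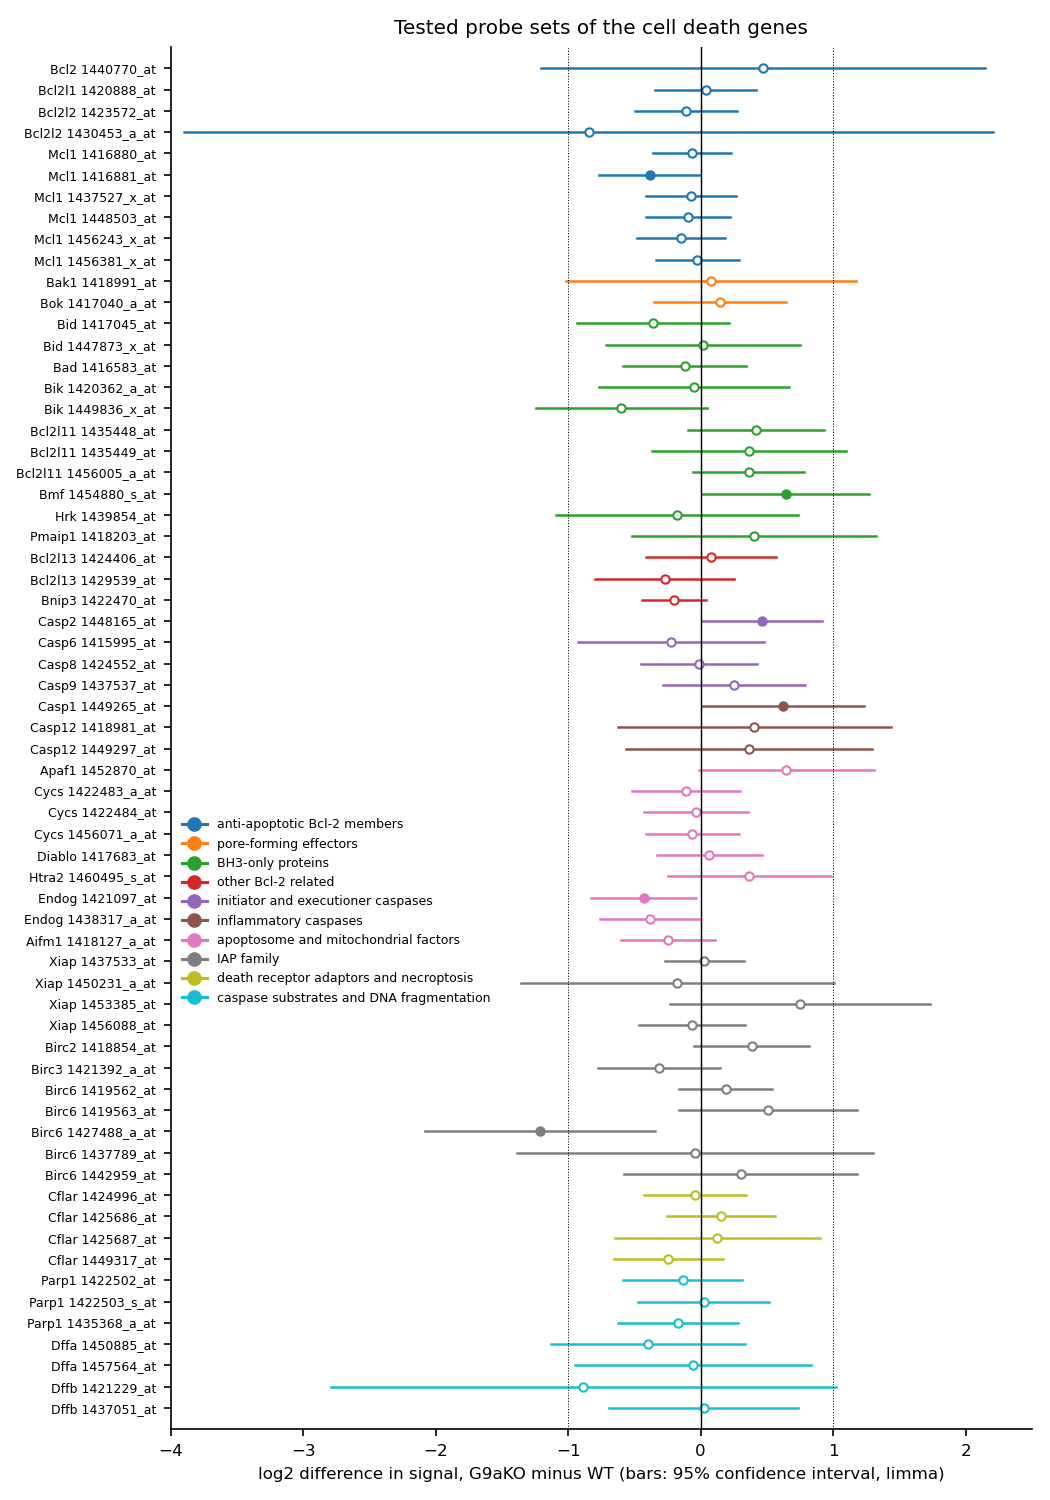
Log2 difference in signal, G9aKO minus WT, with its 95% confidence interval from limma for the 64 tested probe sets, coloured by role; filled points have an unadjusted p under 0.05 and dotted lines mark a 2-fold difference. The 6 filled points are 1 probe set each of Mcl1, Bmf, Casp2, Casp1, Endog and Birc6, and none passed the adjusted threshold.

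**Figure D4:**
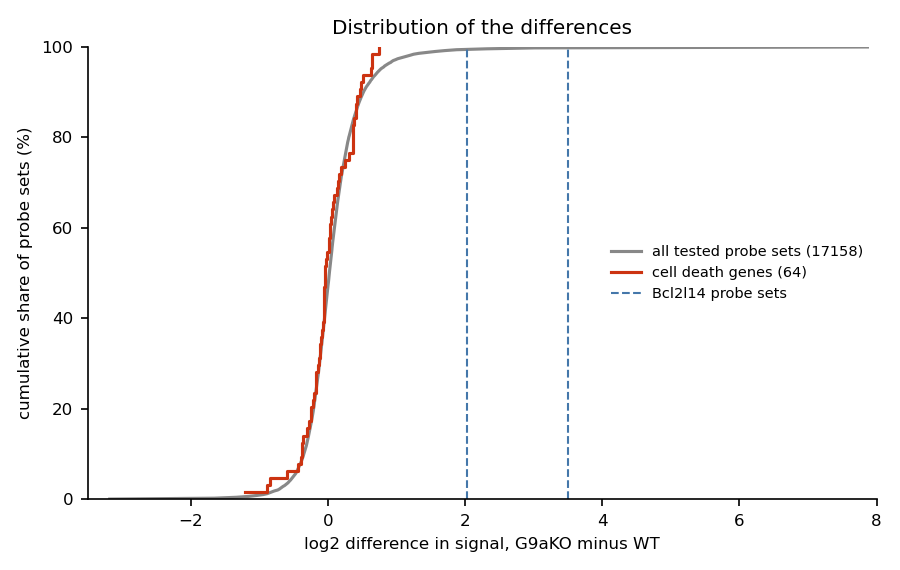
Cumulative share (%) of probe sets against the log2 difference, G9aKO minus WT, for the 64 cell death probe sets (red) and all 17158 tested (grey), with dashed lines at both Bcl2l14 probe sets (2.03 and 3.50). The red and grey curves run close together, with medians of -0.04 and 0.02.

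The anti-apoptotic members hold the mitochondrial membrane closed. Mcl1 was Present on all 4 arrays at each of its 6 probe sets, and its 6 differences ran from -0.39 to -0.03. At the probe set furthest from 0, 1416881_at, its signal was 1439 and 1733 in WT and 1253 and 1166 in G9aKO liver. Both WT arrays stood above both G9aKO arrays (log2 difference -0.39, SE 0.16, adjusted p = 0.536). The other 5 probe sets differed by -0.15 to -0.03, and 3 of them overlapped between genotypes, so the probe sets disagree on the size. Bcl2l1 (Bcl-xL) gave 828 and 773 in WT and 816 and 828 in G9aKO liver, with a difference of 0.04 and a 95% interval of -0.34 to 0.42. Bcl2l2 (Bcl-w) gave 805 and 878 in WT and 782 and 775 in G9aKO liver at its brighter probe set (-0.11, adjusted p = 0.864). Bcl2 itself was Present at 1 of 5 probe sets, on WT 1 and G9aKO 1, at 84.4 and 77.0. The 10 tested probe sets of this group had a median of -0.08.

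Of the effectors that open the pore, Bak1 gave 90.2 and 209 in WT and 168 and 125 in G9aKO liver, Present on WT 2 and G9aKO 2. Its WT arrays lay on both sides of the G9aKO arrays (0.08, SE 0.46, adjusted p = 0.971), and the direction turned without WT 1 (-0.53). Bok, an effector that the anti-apoptotic proteins do not hold back, gave 991 and 785 in WT and 1115 and 852 in G9aKO liver, Present on the first array of each genotype (0.14, adjusted p = 0.864). Both genes overlapped between genotypes, and both turned direction when 1 array was left out.

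The BH3-only proteins start the pathway. Bmf, which is released from the cytoskeleton under stress, gave 350 and 333 in WT and 422 and 672 in G9aKO liver at its 1 detected probe set. Both G9aKO arrays were above both WT arrays (0.64, 95% interval 0.01 to 1.27, adjusted p = 0.532), and the size rests on G9aKO 2: the difference was 0.31 without it and 0.98 without G9aKO 1. Bik, a BH3-only protein of the endoplasmic reticulum, ran the other way at 1449836_x_at, with 392 and 476 in WT and 231 and 353 in G9aKO liver (-0.60, adjusted p = 0.563). It was -0.29 without G9aKO 1 and -0.90 without G9aKO 2. Its other tested probe set gave -0.05 with overlapping genotypes.

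Bcl2l11 (Bim), which binds every anti-apoptotic member, was named after its values were seen, since its 3 tested probe sets all lay above 0. At 1435448_at its signal was 350 and 461 in WT and 518 and 556 in G9aKO liver, and at 1456005_a_at 531 and 545 in WT and 648 and 736 in G9aKO liver. The genotypes did not overlap at either (0.42 and 0.36, adjusted p = 0.602 and 0.580), and they did at the third (0.36). Bid, cut by caspase-8 to carry the signal to mitochondria, was Present on all arrays at 2 probe sets with differences of -0.36 and 0.02, both overlapping. Bad gave -0.12 at its detected probe set. Hrk (-0.18) and Pmaip1 (Noxa, 0.40), the latter a p53 target with signals of 71.1 to 120, were each Present on 3 arrays. The 11 tested BH3-only probe sets had a median of 0.02.

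Bnip3, a mitophagy receptor related to the BH3-only proteins and induced by low oxygen, was among the members Present on every array, at 25827 and 28491 in WT and 23042 and 24173 in G9aKO liver. Both G9aKO arrays were below both WT arrays (-0.20, 95% interval -0.44 to 0.04, adjusted p = 0.595). Bcl2l13, another mitophagy receptor, gave 897 and 693 in WT and 749 and 568 in G9aKO liver at the probe set with the smaller p (-0.27, adjusted p = 0.742), and its second probe set gave 0.08.

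Caspases are proteases made as inactive precursors, so their transcript level does not measure their activity. Casp2, an initiator linked to DNA damage and abnormal ploidy, gave 364 and 349 in WT and 504 and 478 in G9aKO liver. The 2 arrays of each genotype lay close together and the genotypes did not overlap (0.46, SE 0.19, 95% interval 0.01 to 0.91, adjusted p = 0.532). It was the most even of the 6 probe sets with an unadjusted p under 0.05, at 0.42 to 0.50 when any 1 array was left out. Casp9, the apoptosome's caspase, gave 338 and 265 in WT and 351 and 361 in G9aKO liver (0.25, adjusted p = 0.761). Casp8, the death receptor caspase, gave 1750 and 1688 in WT and 1992 and 1462 in G9aKO liver (-0.01, 95% interval -0.45 to 0.42). Casp6, an executioner, gave 1071 and 1844 in WT and 1011 and 1429.6 in G9aKO liver (-0.23), with more spread within a genotype than between them.

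The inflammatory caspases drive pyroptosis and cytokine release. Casp1, the inflammasome caspase that activates interleukin-1, gave 232 and 351 in WT and 437 and 441 in G9aKO liver. Both G9aKO arrays were above both WT arrays (0.62, SE 0.26, 95% interval 0.01 to 1.24, adjusted p = 0.534), with 0.32 without WT 1 and 0.92 without WT 2. Macrophages are known to make Casp1, and the 6 macrophage markers, all detected, had a summed signal of 16069 and 26195 in WT and 41355 and 25733 in G9aKO liver. The sums overlapped between genotypes. Of these markers 6 of 6 had a difference above 0, as had 9054 of all 17158 tested probe sets. Among the markers 0 passed the adjusted limma threshold and 1 had an unadjusted p under 0.05 (9.31% of all tested had). Their part in the Casp1 values was not tested. Casp12, a mouse caspase of the endoplasmic reticulum, gave 183 and 110.0 in WT and 263 and 134 in G9aKO liver at one probe set and 325 and 166 against 373 and 239 at the other. The first array of each genotype was the higher one at both (0.40 and 0.36, adjusted p = 0.799 for each). Casp1, Casp4 and Casp12 are neighbours on chromosome 9, as are Birc2 and Birc3.

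Apaf1, the scaffold of the apoptosome, gave 130 and 148 in WT and 235 and 201 in G9aKO liver, without overlap. Its difference of 0.65 had an unadjusted limma p of 0.053 and an adjusted p of 0.543, and it stayed between 0.53 and 0.76 when any 1 array was left out. Its lower signals lie near or under the Absent quantile, although all 4 were called Present. Endog, a mitochondrial nuclease that cuts DNA in dying cells, ran the other way at both of its probe sets. At 1421097_at it gave 2744 and 3131 in WT and 1932 and 2448 in G9aKO liver (-0.43, SE 0.16, adjusted p = 0.511), and at 1438317_a_at 3421 and 3641 in WT and 2389 and 3078 in G9aKO liver (-0.38, adjusted p = 0.537). The genotypes overlapped at neither, and without G9aKO 1 the first difference was -0.26.

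Aifm1, the flavoprotein that leaves mitochondria in caspase-independent death, gave 5014 and 5008 in WT and 3752 and 4766 in G9aKO liver (-0.24, adjusted p = 0.660). Cytochrome c (Cycs) differed by -0.11 to -0.04 at 3 probe sets, each with overlapping genotypes. Diablo (Smac) and Htra2, which relieve IAP inhibition, gave 0.06 and 0.37. Of the 9 tested probe sets of this group, 6 were below 0, with a median of -0.06 that rests on single arrays: it was 0.12 without G9aKO 1 and -0.26 without G9aKO 2.

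The IAPs bind caspases or mark death proteins for destruction. Birc6 (Bruce), a giant ubiquitin ligase, held the largest difference of the 64 probe sets: 1427488_a_at gave 218 and 184 in WT and 109.5 and 68.0 in G9aKO liver. The genotypes did not overlap (-1.22, SE 0.36, 95% interval -2.08 to -0.35, adjusted p = 0.387), with an unadjusted limma p of 0.0133. Its 4 other tested probe sets gave 0.19, 0.51, -0.04 and 0.30. The one with the highest signal, at 1321 and 1194 in WT and 1404 and 1459 in G9aKO liver, differed upward, so the probe sets disagree in direction and no single direction can be given for the gene. Which transcripts each probe set reads was not determined here.

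Birc2 (cIAP1), a ligase on the TNF receptor, gave 702 and 900.5 in WT and 1045 and 1032 in G9aKO liver (0.39, adjusted p = 0.571), with 0.21 without WT 1 and 0.56 without WT 2. Its neighbour Birc3 (cIAP2) gave 619 and 787 in WT and 572 and 552 in G9aKO liver (-0.31, adjusted p = 0.666). Both pairs were free of overlap, in opposite directions; the contrast between the genes was not tested. Xiap, the direct caspase inhibitor, gave 4510 and 5017 in WT and 4647 and 5046 in G9aKO liver (0.03, 95% interval -0.27 to 0.32) at its best detected probe set, and -0.06, -0.18 and 0.75 at the 3 others, the last at signals of 59.4 to 137. The group's 11 tested probe sets had a median of 0.03.

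Cflar (c-FLIP), which blocks caspase-8 at death receptors, was the one detected gene of its group and was Present on all arrays at 4 probe sets. At 1449317_at it gave 719 and 816 in WT and 630 and 664 in G9aKO liver (-0.24, adjusted p = 0.705), and the other 3 gave -0.04, 0.15 and 0.13 with overlapping genotypes. Cflar and Casp8, its target, are neighbours on chromosome 1. Parp1, the DNA repair enzyme cut by executioner caspases, differed by -0.17 to 0.02 at 3 probe sets. Dffa (ICAD), the inhibitor that caspases cut to free the nuclease Dffb, gave 529 and 486 in WT and 523 and 283 in G9aKO liver, the last array standing low (-0.40, adjusted p = 0.728); without G9aKO 2 the difference was 0.04. Dffb (CAD) at 1421229_at gave 57.6 and 76.4 in WT, both Present, and 17.4 and 74.3 in G9aKO liver, both Absent. The genotypes overlap, the signals are below the Absent quantile, and the fitted difference of -0.89 (95% interval -2.79 to 1.02, adjusted p = 0.763) was 0.16 without G9aKO 1. The better detected probe set gave 0.02.

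**Figure D5:**
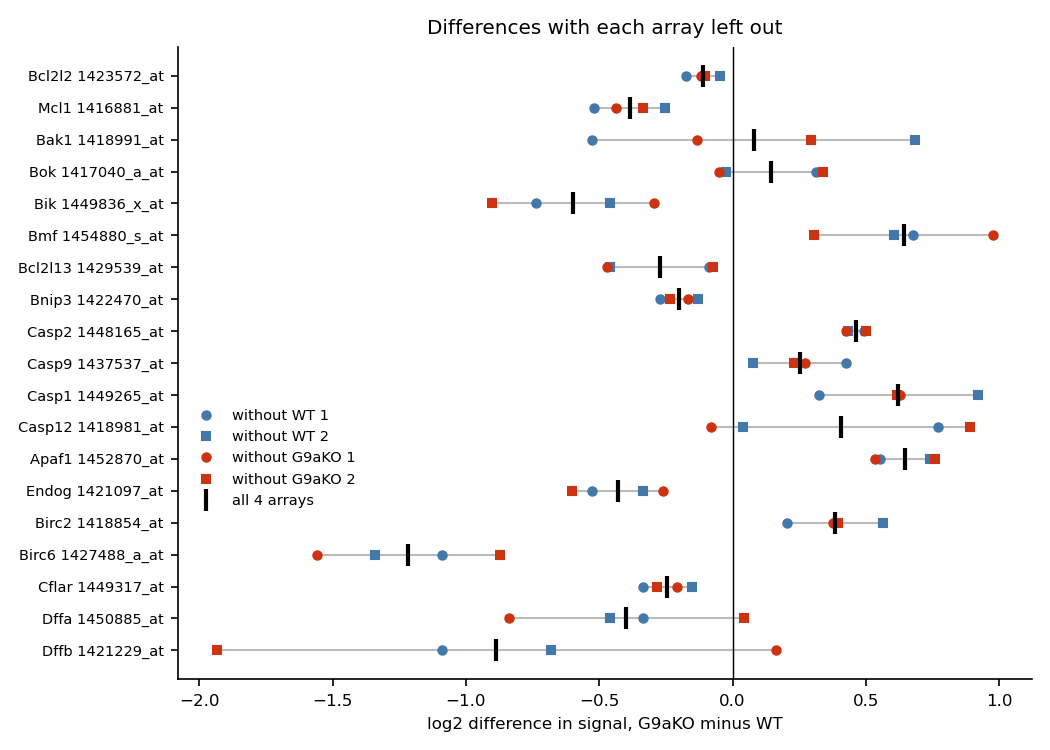
Log2 difference in signal, G9aKO minus WT, of 19 named probe sets with all 4 arrays (black bar) and with each array left out (symbols). Casp2 and Apaf1 keep their values (0.42 to 0.50 and 0.53 to 0.76), while Bak1, Bok, Casp12, Dffa and Dffb cross 0.

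Some further differences moved by over 1.5 times with 1 array, keeping their direction. Without WT 2, that of Mcl1 was -0.25, of Bcl2l2 -0.05, of Bnip3 -0.13, of Cflar -0.15 and of Casp9 0.08. Without WT 1 they were -0.52, -0.17, -0.27, -0.34 and 0.43. Bcl2l13 gave -0.07 without G9aKO 2 and -0.47 without G9aKO 1.

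Across the members, probe sets of one gene often disagreed: of 15 genes with more than 1 tested probe set, 8 had a single sign throughout. Of the 6 probe sets with an unadjusted p under 0.05, those of Endog, Bmf, Casp1, Casp2 and Mcl1 are of genes whose tested probe sets all share their sign, for Bmf, Casp1 and Casp2 because there is only 1.

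Other genes of the cell death pathways served as context. Of 39 listed, 33 had a probe set and 27 were detected, at 44 probe sets. None passed the adjusted threshold in either direction. At an unadjusted limma p under 0.05, 6 were higher (5.36% of all tested were) and 0 lower (3.95%). In either direction this was 13.6%, against 9.31% of all tested. The median difference was 0.16, against 0.02 over all tested. The count includes both probe sets of Bcl2l14, which the study had picked out from these same arrays, so those were not chosen blind to the result. The 6 were of Tnfrsf1a, the TNF receptor (0.42), Tnfaip3 (A20), which curbs its signal (0.71), the p53 targets Trp53inp1 (0.35, with -0.35 at its second tested probe set) and Phlda3 (0.73), and both probe sets of Bcl2l14, a further Bcl-2 relative. Bcl2l14 gave 164 and 258 in WT and 738 and 954 in G9aKO liver at a probe set that was Absent in WT liver. There Bcl2l14 was an estimated 4.08-fold higher in G9aKO liver (fitted difference 2.03, limma adjusted p = 0.0654). Its second probe set gave 3.50 (adjusted p = 0.209). Fasl, Tnf, Nlrp3, Tnfrsf10b, Pidd1 and Bcl2l10 were not detected. Among them Nlrp3 alone had a mean signal above the Absent quantile (279 and 193 in WT, 240 and 160 in G9aKO liver), so it cannot be called unexpressed from its calls.

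Further facts bear on these values. Ehmt2 gave 640 and 492 in WT, both Present, and 174 and 164 in G9aKO liver, both Absent, at its 1 detected probe set. There Ehmt2 was an estimated 3.33-fold higher in WT liver (limma adjusted p = 0.0612). Whether this probe set lies in the deleted exons is not known here. All 6 hepatocyte markers were Present on every array, with summed signals of 347743 to 397000. Stellate cell markers summed higher on both G9aKO arrays, with 1370 and 1363 in WT and 3671 and 1738 in G9aKO liver. All 4 tested stellate markers had a difference above 0 (0.35 to 1.13) without overlap between genotypes. Of all 17158 tested probe sets 9054 were above 0, and 21.7% were higher in G9aKO liver without overlap. Among the stellate markers 0 passed the adjusted limma threshold and 1, Acta2 (1.10), had an unadjusted p under 0.05 (9.31% of all tested had). The sum on G9aKO 1 rests largely on Col3a1, at 2029 there against 481 to 585 on the other arrays. G9aKO 1 stood apart in other markers: neutrophil markers summed to 2472 there against 449.7 to 1139 on the other arrays. B cell markers summed to 2106 there against 682 to 723, of which Ighm alone made 1796, Present on that array only; both tested B cell markers, Cd79b and Ms4a1, had differences below 0 (-0.22 and -0.03). Cd3e, Cd79a, Csf3r and Des were never Present. The part of these cells in the values above was not tested.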

How the data were processed

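Gene expression was measured in liver of 2 WT and 2 G9aKO mice, grouped by the submitters' labels, with 1 array each; the labels give no batch. Arrays were processed by the authors with MAS5 (credited to the submitters' processing notes; version not given in the sources used here). Each of 45101 probe sets has a deposited signal, which is a linear intensity after background subtraction and scaling of the whole array, and a deposited detection p-value with its call. The deposited series matrix held the same signals, within a relative difference of 5e-06, and served as an alternative.

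Probe sets that name several genes (932), none (9160) or controls (64) were left out. Log2 signals of the 17158 probe sets with 1 gene and Present calls on at least 2 arrays were compared with limma 3.58.1 in R 4.3.3 (lmFit, then eBayes, whose prior variance followed a trend with the mean), without further normalization or pseudocount, at 2 residual and 4.60 prior degrees of freedom, and adjusted by Benjamini-Hochberg at 0.05. The fit was tested on simulated data. The number of arrays limits the precision. Other steps used Python 3.11.15 with pandas 2.3.3 and matplotlib 3.10.9. The study's methods name no test for the arrays; their general t-test was an alternative. Others were pseudocounts, filters, centring, quantile normalization, the prior and leaving out each array.

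The members and lists were chosen with earlier results of these data known. Signals were given by a rule for members with an unadjusted p under 0.05 and no overlap between genotypes, and for the probe sets of smallest p in groups that would otherwise show fewer than 2 members; others are named for a fuller account, after their values were seen. Where a group was Absent on both arrays, its signals were used as they stand. The fold given there is an estimate and not a bound. Promoters came from RefSeq (GRCm38.p6).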

Additional observations from a re-analysis of the deposited data

How the results depend on the processing

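The counts of cell death probe sets past the adjusted threshold stayed at 0 higher and 0 lower under each alternative. At an unadjusted p under 0.05 the 3 higher became 1 with the brightest probe set per gene, 0 with median centring, 0 with quantile normalization and 5 without a detection filter, and 0 to 2 when 1 array was left out. The 3 lower became 0 with the brightest probe set, 0 with the methods' t-test, 1 without a mean-variance trend, and 1 to 6 without 1 array. Of 14 alternatives that gave a value, the named probe sets kept an unadjusted p under 0.05 in 11 for Birc6, 10 for Endog and 9 for Mcl1, and of 15 in 8 for Casp2 and 7 each for Bmf and Casp1.

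The median difference of all cell death probe sets (-0.04) became 0.022 with the brightest probe set and -0.094 with median centring, and ranged from -0.064 to 0.018 without 1 array. The IAP median (0.03) became 0.11 with probe sets Present on all 4 arrays or the brightest, -0.029 with median centring, 0.061 without a filter and 0.065 with quantile normalization (0.012 to 0.21 without 1 array). The anti-apoptotic median (-0.08) became -0.028 with the brightest and -0.14 with median centring. The median of initiator and executioner caspases (0.12) became 0.065 with median centring, -0.011 without a filter and 0.077 with quantile normalization (0.12 to 0.22 without 1 array). Without 1 array, the median was -0.055 to 0.27 for BH3-only proteins, -0.18 to -0.016 for substrates, -0.21 to 0.17 for adaptors, -0.26 to 0.12 for apoptosome and mitochondrial factors, 0.038 to 0.77 for inflammatory caspases, -0.11 to 0.33 for effectors, -0.13 to -0.044 for anti-apoptotic members and -0.17 to -0.074 for other Bcl-2 relatives. The cause was not tested.

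Bak1 turned to -0.056 with quantile normalization. Differences that turned direction without 1 array were those of Bak1 (-0.53 to 0.69; -0.13 without G9aKO 1), Bok (-0.050 to 0.34; -0.024 without WT 2), Casp12 (-0.081 to 0.89), Dffa (-0.84 to 0.044) and Dffb (-1.93 to 0.16). The remaining 266 recomputed values of named probe sets kept their direction and their side of the threshold. No paired analysis was possible because the labels give the arrays no replicate number shared between genotypes.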
